A study of Mus musculus with 4 samples.

Results

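The cells described here were smooth muscle cells of the mouse aorta that contained mRNA of Igfbp2, the gene of insulin-like growth factor binding protein 2, after infusion of angiotensin II (AngII) for 3 days. They came from the library labelled SHF AngII, in which SHF stands for the second heart field, an embryonic source of aortic smooth muscle. The cells were chosen by their own counts of UMIs (unique molecular identifiers, that is, counted transcripts). Barcodes needed 500 detected genes or more, with no more than 10% of UMIs mitochondrial. A barcode was taken as a smooth muscle cell with at least 5 UMIs of Myh11, the smooth muscle myosin heavy chain, and none of Pdgfra, Ptprc or Pecam1, which mark fibroblasts, white blood cells and endothelium. An Igfbp2-positive cell had at least 2 Igfbp2 UMIs and fewer than 5 of Spp1 (osteopontin). This gave 2576 Igfbp2-positive cells among 4523 gated smooth muscle cells and 9490 kept cells of the library, out of 28540 kept cells in the 3 libraries analysed. The comparison cells of the same library were 1435 gated smooth muscle cells with no Igfbp2 UMI.

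All libraries came from ascending aortas of male mice of the strain labelled Mef2c-mTmG, in which a fluorescent reporter records lineage, and living cells were sorted by that lineage before droplet capture. The SHF AngII and CNC AngII libraries followed 3 days of infusion, and the SHF baseline library came from mice without it; CNC, the other lineage label, is not spelled out in the labels, and the sample labelled CNC baseline is not analysed here. The dose, the ages, the number of mice, whether they were pooled and the line that drives the reporter are not given in the sources used here. Each group was 1 library, so no difference between libraries has a replicate check, no test was made, and every interval below is a 95% interval that covers counting error only. The sort itself could not be read back, since the count tables list 0 rows for a reporter or recombinase.

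Insulin-like growth factor binding proteins are secreted proteins that hold insulin-like growth factors outside the cell and set how much reaches the receptor. IGFBP2 also carries a short motif through which it can bind integrins, and it binds to matrix. Aortic smooth muscle cells contract through actin and myosin and also lay down the elastin, collagen and basement membrane of the vessel wall, and AngII raises blood pressure and acts on these cells through its receptor.

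Promoter sequence is shown for Igfbp2, which chose the cells, and for Tnc and Ankrd1, the genes with the largest ratios in them among genes at or above the level limit given with the comparison. The windows are from RefSeq on build GRCm38.p6, 250 bases upstream of an annotated start, 5′ to 3′ on the gene's strand. Igfbp2 lies on the plus strand at chr1:72824503-72852474, and its window is chr1:72824230-72824479. Tnc lies on the minus strand at chr4:63959785-64047015, and its window is chr4:64047016-64047265; capitals mark TATAAA. For Ankrd1, on the minus strand at chr19:36111961-36120099, the windows are the 30 bases around each of its matches to the MCAT element, the site of TEAD factors, in capitals (GGAATG, the other strand of CATTCC), at chr19:36120037-36120066 and chr19:36119950-36119979. The matches lie 210 and 123 bases before the RefSeq start. All 250 bases before that start lie within an Ankrd1 exon of the GENCODE annotation, so both stretches are also annotated as transcribed.
Igfbp2: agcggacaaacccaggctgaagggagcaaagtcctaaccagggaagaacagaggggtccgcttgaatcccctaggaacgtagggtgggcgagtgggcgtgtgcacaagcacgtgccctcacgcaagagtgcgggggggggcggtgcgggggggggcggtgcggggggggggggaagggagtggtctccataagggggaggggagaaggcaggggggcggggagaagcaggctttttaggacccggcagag
Tnc: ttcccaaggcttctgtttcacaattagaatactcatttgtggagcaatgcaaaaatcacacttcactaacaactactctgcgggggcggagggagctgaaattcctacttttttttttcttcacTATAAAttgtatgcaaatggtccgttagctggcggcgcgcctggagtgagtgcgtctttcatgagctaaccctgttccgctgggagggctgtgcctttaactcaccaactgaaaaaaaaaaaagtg
Ankrd1, first match: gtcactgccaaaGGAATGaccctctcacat
Ankrd1, next match: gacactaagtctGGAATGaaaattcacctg
Letters searched on both strands of the 250 bases were CATTCC for MCAT and TATAAA for the TATA box. The AP-1 element was searched as TGANTCA. The CArG box of serum response factor was searched as well, and no match overlapped another in these windows. MCAT letters stood in 12.6% of all 32851 promoter windows of that length, AP-1 letters in 6.75%, TATAAA in 12.4% and the CArG box in 1.47%. Of the 12 genes with the highest ratios below, 6 had such windows, 15 in all. MCAT letters stood in 3 of these windows (20%), which belonged to Ankrd1 and Bdnf. Of the 12 genes with the lowest ratios, 7 had windows, and MCAT letters stood in 2 of 12 windows (16.7%). Counted by gene, these were 2 of 6 and 2 of 7, against 3880 of all 27025 genes. The Igfbp2 window shown held none of the 4, whereas the window of its other annotated start held an AP-1 match 39 bases upstream. A match is a description of letters and not a binding site.

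The label was checked against its markers. The 7 genes of a smooth muscle marker list, Myh11 among them and led by Acta2 (smooth muscle actin), summed to 67042 CPM (a group's UMIs of a gene scaled to 1000000 UMIs of the group) in Igfbp2-positive cells, against 59482 CPM in cells without Igfbp2. Myh11, Igfbp2 and Spp1 entered the rule and are given as description. Myh11 stood at 1918 CPM in Igfbp2-positive and 1842 CPM in Igfbp2-zero cells, and Igfbp2 at 2057 CPM in the positive cells. Of the markers that came with the label, Col18a1, a basement membrane collagen, stood at 1444 CPM against 1144 CPM and Npnt, the integrin ligand nephronectin, at 666 CPM against 581 CPM. Both were therefore abundant in cells with and without Igfbp2 and did not separate them by 1.5-fold. Markers of macrophages, endothelium, Schwann cells, lymphocytes and red cells each summed to at most 2.23 CPM in either group. A mesothelial list summed to 3.75 CPM in positive and 6.004 CPM in zero cells, and a pericyte list, some of whose genes smooth muscle also expresses, to 387 CPM and 381 CPM.

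The 3 libraries held 147854476, 150954701 and 92474476 UMIs for SHF AngII, CNC AngII and SHF baseline, and Scrublet marked 192, 279 and 207 barcodes as doublets, which were left in. Libraries shared 32, 29 and 34 barcode sequences by pair. Of these, 1 belonged to an Igfbp2-positive cell in SHF AngII and to another in CNC AngII, and they were counted as separate cells. Igfbp2-positive cells of SHF AngII were deeper than Igfbp2-zero cells, with a median of 14805.5 against 10436 UMIs, and had a similar median mitochondrial share of 5.38% against 5.54%. This gap in depth moves with every ratio below and its part was not tested beyond the values given with the depth weighted. The baseline table was made with another gene list, of 18760 rows against 32285, so that differences from baseline include that difference.

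Igfbp2-positive cells were the larger share of smooth muscle cells after AngII and the smaller share at baseline. They made up 57.0% (interval 55.5% to 58.4%) of gated cells in SHF AngII, 67.2% (66.0% to 68.3%) in CNC AngII and 15.9% (14.4% to 17.6%) in SHF baseline, where 333 of 2090 cells met the rule. With every cell thinned to 5000 UMIs, the share with at least 2 Igfbp2 UMIs, whatever the Spp1, was 48.2%, 61.8% and 9.78% in the same order, against 58.8%, 72.9% and 15.9% without thinning; 56, 77 and 45 shallower cells were left out. CNC AngII stood highest and SHF baseline lowest at both depths. Since Igfbp2 chose the cells, these shares describe the libraries.

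Igfbp2 UMIs also occurred at a low rate outside smooth muscle. Among 1423 fibroblasts of SHF AngII (at least 2 Pdgfra UMIs and at most 1 of Myh11), at a median of 17276 UMIs, 10.0% had at least 1 Igfbp2 UMI and 3.37% at least 2. Against these, 68.3% of the gated smooth muscle cells had at least 1 and 58.8% at least 2. The highest count in a fibroblast was 118 Igfbp2 UMIs. How much of the Igfbp2 in either kind of cell was background was not tested. In SHF baseline, 0.378% of 2118 fibroblasts had 1 UMI and 0 had 2, at a median of 9954.5 UMIs.

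Within the Igfbp2-positive cells the amount varied widely. Igfbp2 ranged from 2 to 596 UMIs per cell with a median of 18 and quartiles of 6 and 44; the median was 18 in CNC AngII as well and 6 at baseline. Of gated SHF AngII cells, 9.46% had exactly 1 UMI, just outside the rule, and 198 cells had exactly 2, just inside it. Cells with 10 to 49 UMIs were 25.05% and cells with 50 or more 12.6% in SHF AngII, against 4.59% and 1.29% at baseline. Cells just inside and just outside the threshold were alike in depth, with medians of 12524 and 12448.5 UMIs.

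**Figure D1:**
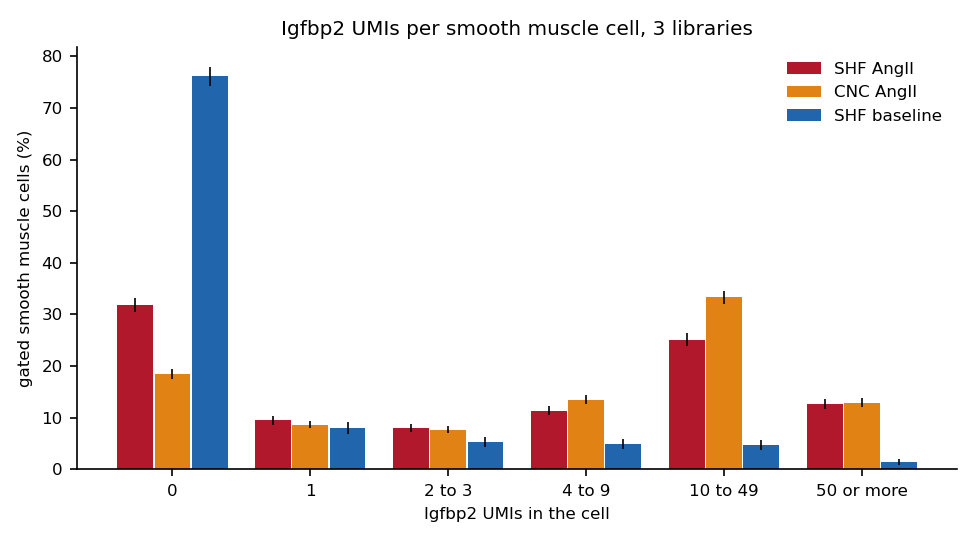
Share of gated smooth muscle cells (y axis, %) by the number of Igfbp2 UMIs in the cell (x axis) in 3 libraries, with exact binomial 95% intervals as bars; cells with at least 2 Igfbp2 and at least 5 Spp1 UMIs are not drawn. Cells with none were 31.7% in SHF AngII, against 18.5% in CNC AngII and 76.1% in SHF baseline.

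Next, all other genes were compared between Igfbp2-positive and Igfbp2-zero cells of SHF AngII, by the log2 ratio of summed CPM with 1 CPM added to each. The groups were closely alike: of 2445 genes with a mean of at least 50 CPM, 12 (0.491%) were at least 1.5-fold higher in Igfbp2-positive cells and 28 (1.15%) at least 1.5-fold lower, and the median absolute log2 ratio was 0.08. The higher genes include those of matrix proteins and matrix enzymes (Tnc, Fn1, Eln, Loxl2), secreted factors (Tgfb2, Bdnf), a receptor phosphatase (Ptprz1), an annexin (Anxa3), a Golgi-resident protein (Fjx1) and mechanically regulated or sarcomere-linked proteins (Ankrd1, Sorbs2). The lower genes include those of proteoglycans and secreted proteins common in fibroblasts (Lum, Dcn, Serpinf1, Col14a1), a lipid carrier (Apoe), a metal-binding protein (Mt1), xenobiotic enzymes (Gstm1, Fmo2) and striated muscle proteins (Tcap, Tnnt2).

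**Figure D2:**
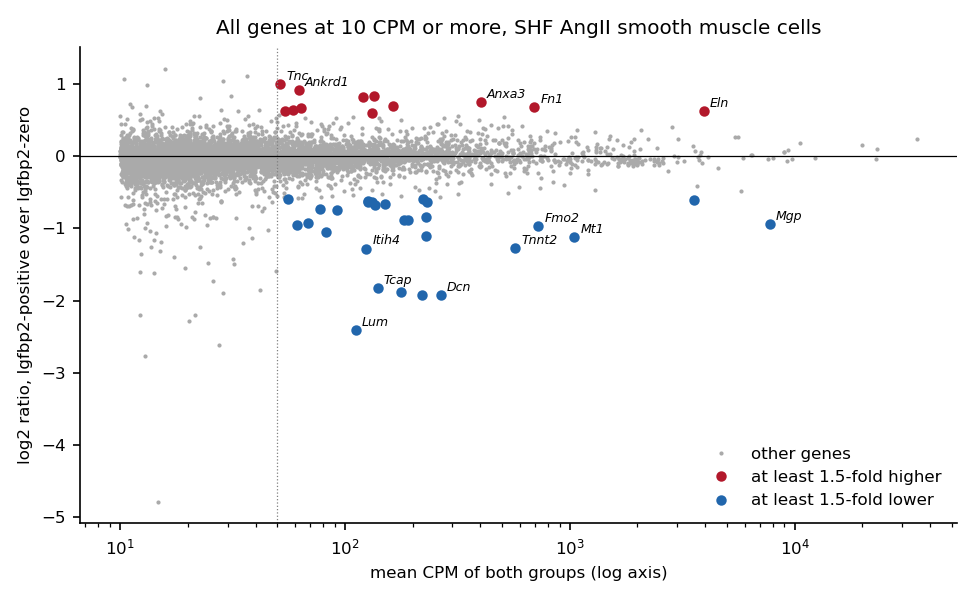
Log2 ratio of Igfbp2-positive over Igfbp2-zero cells (y axis) against the mean CPM of both groups (x axis, log scale) for genes at 10 CPM or more in SHF AngII; red and blue points are the 12 genes at least 1.5-fold higher and the 28 at least 1.5-fold lower among genes at 50 CPM or more (dotted line). Most genes lie near 0, and the lower genes reach further from it than the higher ones.

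Among the matrix genes, Tnc had the highest ratio. Tenascin-C, a matrix glycoprotein of remodelling tissue, stood at 69.2 CPM in Igfbp2-positive and 34.0 CPM in Igfbp2-zero cells, a log2 ratio of 1.004 (interval 0.90 to 1.15). Eln, the elastin gene at chr5:134702593-134747323, was far more abundant. It stood at 4780.4 CPM against 3095 CPM, a log2 ratio of 0.63 (0.61 to 0.64), and the median cell held 49 against 14 of its UMIs. Fn1 (fibronectin) stood at 854 CPM against 531 CPM and Loxl2, a lysyl oxidase that cross-links elastin and collagen, at 66.0 CPM against 42.5 CPM, ratios of 0.68 and 0.62. All 4 were below 1.5-fold when Igfbp2-zero cells were weighted to the depth of the positive cells: 0.57 for Tnc, 0.38 for Fn1, 0.32 for Loxl2 and 0.31 for Eln.

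The secreted factors showed the same order of size. Tgfb2, a TGF-beta ligand made by smooth muscle, stood at 202 CPM against 124 CPM (log2 ratio 0.70, interval 0.63 to 0.77). Bdnf, the neurotrophin, stood at 78.2 CPM against 48.9 CPM, a ratio of 0.67. With the depth weighted, these were 0.581 and 0.51, both below 1.5-fold, which is 0.585 on this scale.

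The genes whose ratio stayed past 1.5-fold at weighted depth were Ankrd1, Ptprz1, Anxa3, Fjx1 and Sorbs2. Ankrd1, a nuclear and sarcomeric ankyrin repeat protein induced by stretch, stood at 81.8 CPM against 42.8 CPM, a log2 ratio of 0.92 (0.82 to 1.05) and 0.74 at weighted depth. Its UMIs were unevenly spread, with a median of 0 and a highest count of 77 per positive cell, and the top 5% of these cells held 53.6% of them. Ptprz1, a receptor tyrosine phosphatase whose ligands include pleiotrophin, stood at 153 CPM against 86.3 CPM, ratios of 0.82 and, at weighted depth, 0.99. Anxa3 (annexin A3) stood at 504 CPM against 300.1 CPM, ratios of 0.75 and 0.61; its exons overlap Gm42603 on the same strand. Fjx1, a Golgi-resident regulator of planar polarity, and Sorbs2, an actin adaptor, had ratios of 0.64 and 0.61, and 0.60 and 0.70 at weighted depth.

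Among the genes lower in Igfbp2-positive cells were some of striated muscle. Tcap (telethonin, a Z-disc protein, at chr11:98383811-98384953) stood at 60.9 CPM against 218 CPM, a log2 ratio of -1.82 (-1.91 to -1.77). Tnnt2, cardiac troponin T, at chr1:135836354-135852260, stood at 335 CPM against 811 CPM, a ratio of -1.27 (-1.31 to -1.24), and 24.9% against 37.4% of cells held at least 5 UMIs of it. At weighted depth Tcap was at -1.39 and Tnnt2 at -0.84. Striated muscle genes as a list lay on both sides of 0, with a median of 0.35 over 8 genes, since Tnnt3 (14.5 against 6.40 CPM, log2 ratio 1.06), Ckm (29.3 against 16.2 CPM, 0.81) and Ankrd1 were at least 1.5-fold higher. A cardiomyocyte marker list summed to 25.4 CPM in the positive and 31.9 CPM in the zero cells, mostly from Ryr2.

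The proteoglycans Lum (lumican) and Dcn (decorin) had the lowest ratios and rested on few cells. Lum stood at 34.6 CPM against 189 CPM, a log2 ratio of -2.41, and Dcn at 110.4 CPM against 423 CPM, a ratio of -1.93. All 7 fibroblast markers outside the rule were lower in Igfbp2-positive cells, the list summed to 102 CPM against 313 CPM, Pdgfra stood at 0 by the gate, and 12.6% against 18.1% of cells had more than 1 of its markers. Cells with at least 5 Lum or 10 Dcn UMIs were 3.96% of the positive and 11.9% of the zero cells and held 69.5% and 89.6% of the Lum UMIs. Without them Lum stood at -0.98 and Dcn at -0.96, and 17 genes rather than 28 were at least 1.5-fold lower. Without those cells Tcap stood at -1.79 (from -1.82), Itih4 at -1.15 (from -1.28), Tnnt2 at -1.10 (from -1.27) and Gstm1 at -1.10 (from -1.11). Apoe (apolipoprotein E) moved from -1.92 to -1.56, and those cells held 45.5% of the Apoe UMIs of the zero group.

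**Figure D3:**
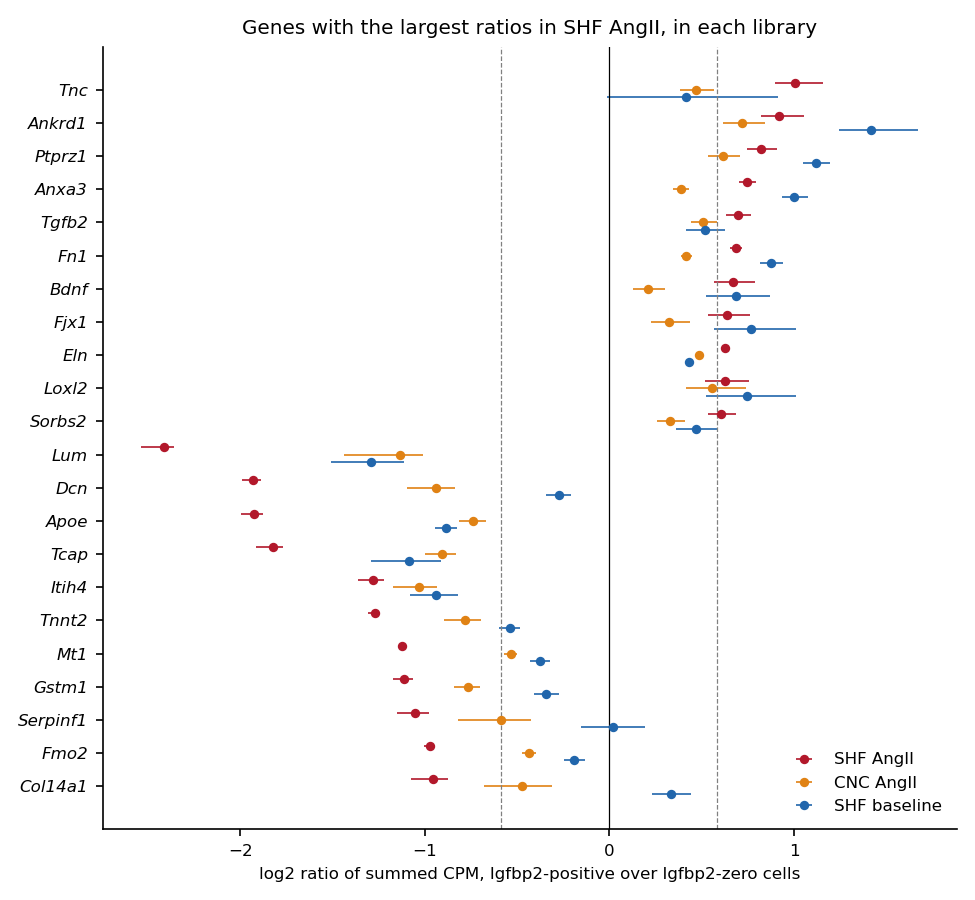
Log2 ratio of Igfbp2-positive over Igfbp2-zero cells (x axis) for 11 of the 12 highest and 11 of the 12 lowest genes of SHF AngII (y axis) in each of 3 libraries, with counting intervals computed without the added CPM as bars and dashed lines at 1.5-fold. The 11 higher genes lie right of 0 in all 3 libraries, and Col14a1 and Serpinf1 lie right of 0 at baseline. The baseline intervals of Tnc (-0.01 to 0.91) and Serpinf1 (-0.16 to 0.19) include 0.

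The other libraries, whose cells took no part in choosing these genes, were then read for them. All 12 higher genes had a ratio above 0 in CNC AngII, where 49.5% of 2454 genes at 50 CPM or more did, and 2 of them, Ankrd1 (0.72) and Ptprz1 (0.61), were past 1.5-fold, against 0.204% of genes there. All 12 were also above 0 at SHF baseline, where 50.3% of 2522 genes were; 8 were past 1.5-fold, 4 of them at 50 CPM or more, where 0.555% of genes were. At baseline Ankrd1 reached 1.42, Ptprz1 1.12 and Anxa3 1.002, with 333 positive cells. Tnc stood at 0.42 there, with an interval of -0.01 to 0.91 that includes 0. Of the 28 lower genes, all were below 0 in CNC AngII, where 50.5% of genes were; 12 were past 1.5-fold, 7 of them at 50 CPM or more, where 0.407% of genes were. At baseline 24 of the 27 measured were below 0, where 49.7% of genes were; 7 were past 1.5-fold, 6 of them at 50 CPM or more, where 0.595% of genes were. The depth gap between positive and zero cells was present in each library, with medians of 13767.5 against 10705 UMIs in CNC AngII and 15029 against 11949 at baseline.

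As shares of each list, the genes at 50 CPM or more that were higher in both SHF AngII and CNC AngII were 2 of 12 and 2 of 5, and in both SHF AngII and baseline 4 of 12 and 4 of 14. The lower genes in common were 7 of 28 and 7 of 10 with CNC AngII, and 6 of 28 and 6 of 15 with baseline. Across genes, which are not replicates, Pearson's r of the ratios was 0.80 with CNC AngII over 2365 genes and 0.65 with baseline over 2198; the ratios share the depth gap.

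Gene lists describe how the wall-building and contractile programmes lay in Igfbp2-positive cells; list genes were read at a mean of at least 10 CPM, where 0.381% of 6817 genes were at least 1.5-fold higher, 1.76% at least 1.5-fold lower and 44.7% above 0, with a median of -0.02. Unless stated otherwise, the cells rich in Lum or Dcn were left in for these lists. Contractile genes, 23 of them, had a median of 0.09, with 18 above 0 and none past 1.5-fold. Acta2 stood at 37914 CPM against 32271 CPM (0.23), Cnn1 (calponin) at 0.24 and Actg2 (enteric actin) at 0.42, the highest, while Lmod1 (leiomodin) at -0.20 was the lowest. Integrins, the receptors that link cells to matrix and that IGFBP2 can bind, had a median of 0.15 over 10 genes with none past 1.5-fold, led by Itga5 at 0.33, the partner for fibronectin, and Itgb1 at 0.28.

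In the IGF system, 9 genes outside the rule were measured and their median was 0.02. The receptor Igf1r stood at 95.7 CPM against 85.2 CPM (0.17), and Htra1, a protease that cuts IGF binding proteins, at 702 CPM against 524 CPM (0.42). The other binding proteins measured, Igfbp7 and Igfbp4, were at 0.06 and -0.13, although Igfbp4 was at 0.72 in CNC AngII. The ligand Igf1 was at least 1.5-fold lower, at 24.6 CPM against 50.1 CPM (-0.996), but stood at -0.15 without the cells rich in Lum or Dcn. Thus among IGF genes no member but Igf1 was past 1.5-fold, and 11 of the 20 on the list fell under 10 CPM.

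The elastic fibre list had a median of 0.11 over 18 genes, with Eln and Loxl2 at least 1.5-fold higher and Fbln1 lower. Of the enzymes that cross-link elastin, Lox stood at 0.34, Loxl1 at 0.45 and Loxl3 at 0.36 beside Loxl2, and of the microfibril genes Fbn1 (fibrillin) stood at 0.09 and Mfap5 at 0.30. Fbln1 (fibulin) was at -1.85, at 17.6 CPM against 66.4 CPM, and Ltbp4, which tethers latent TGF-beta, at -0.52. Cells with 2 to 3 Igfbp2 UMIs already stood at -1.96 for Fbln1 over cells with 0. Those with 50 or more stood at 0.28 over those with 2 to 3. The list's median was 0.02 at weighted depth. Collagens outside the basement membrane had a median of 0.19 over 12 genes, which was -0.06 at weighted depth; Col1a1 stood at 0.18, Col1a2 at 0.20 and Col5a2 at 0.39, and Col8a1, Col14a1 and Col16a1 were at least 1.5-fold lower.

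Basement membrane genes had a median of 0.10 over 21 genes with none at least 1.5-fold higher. Col15a1 led at 461 CPM against 326 CPM (0.50), followed by Pxdn, which cross-links collagen IV, at 0.42, Col18a1 at 0.34, Lama5 at 0.33 and Col4a2 at 0.29. The laminin chains Lamc3 (-0.85) and Lama2 (-0.67) were at least 1.5-fold lower, and Col4a6 at -0.58 fell just short. Among TGF-beta and BMP genes the median was -0.04 over 23 genes. Of its ligands Tgfb2 stood at 0.70, Tgfb3 at 0.47 and Tgfb1 at -0.15, and the receptors Tgfbr1, Tgfbr2 and Tgfbr3 were at -0.10, -0.48 and -0.72. Of its targets, Smad7 stood at 0.01, Id1 at -0.02 and Id3 at -0.19.

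**Figure D4:**
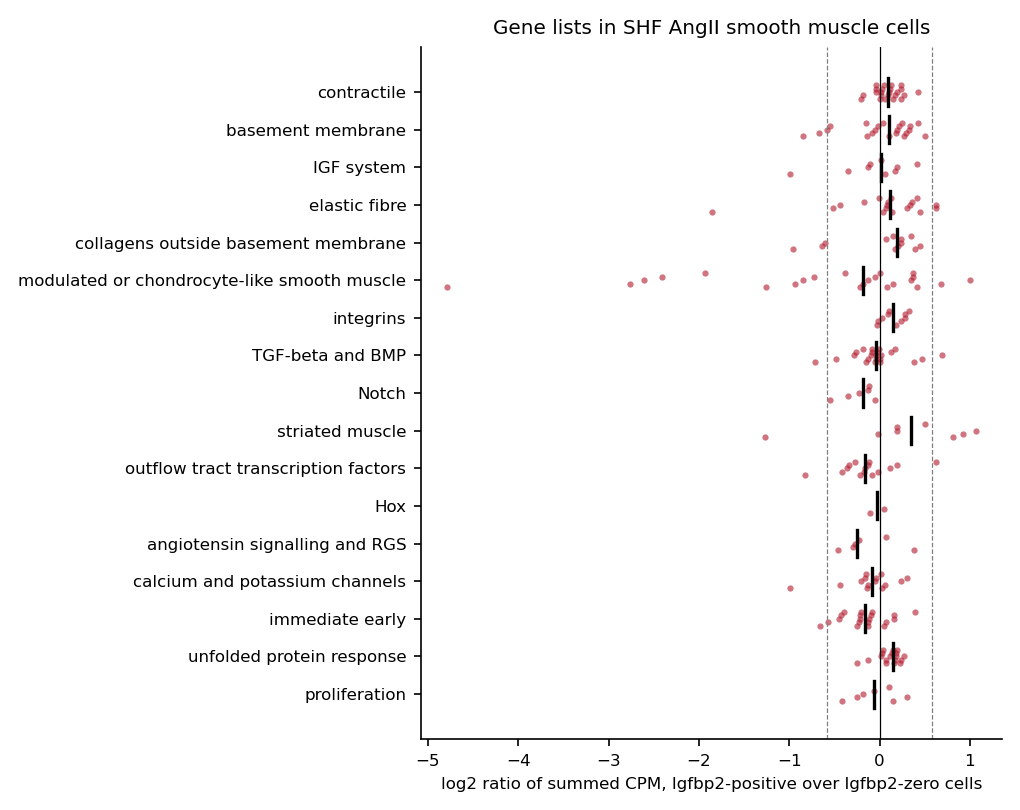
Log2 ratio of Igfbp2-positive over Igfbp2-zero cells (x axis) for each gene of 17 lists (y axis) with a mean of at least 10 CPM in SHF AngII; each point is a gene, black bars are list medians and dashed lines mark 1.5-fold. Medians lie between -0.25 and 0.35, and the list of modulated or chondrocyte-like genes reaches furthest to the left.

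Genes of modulated or chondrocyte-like smooth muscle, which rise when these cells leave the contractile state, had a median of -0.18 over 23 genes, with Tnc and Fn1 at least 1.5-fold higher and 9 lower. Several of these rested on 40 Igfbp2-zero cells with at least 5 Spp1 UMIs, which the rule removes from the positive cells only. Those 40 cells held 4.86% of the UMIs of the zero group but 99.0% of its Chad UMIs, 93.1% of Cytl1 and 79.6% of Comp, all cartilage genes. With them left out, Chad moved from -4.79 to -0.25, Cytl1 from -2.77 to 0.40 and Comp from -2.61 to -0.49. Mgp, the calcification inhibitor matrix Gla protein, was less affected, at 5324 CPM against 10204 CPM (-0.94), and -0.75 without those cells. Tnfrsf11b (osteoprotegerin) stood at -1.26, and -1.06 without them. Ly6a and Vcam1 (-0.85 and -0.72) stood at 0.12 and 0.07 without the cells rich in Lum or Dcn. Acan, the cartilage proteoglycan aggrecan, was higher in positive cells at 84.5 CPM against 65.2 CPM (0.37), and Postn (periostin) at 0.37 and Ccn2 at 0.41 stood near it. The Acan excess was not in the cells richest in Igfbp2. Over cells with 0 Igfbp2 UMIs, Acan stood at 0.57 in cells with 2 to 3 and at -0.02 in those with 50 or more.

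Stress lists lay on both sides of 0. Immediate early genes, which are also induced by tissue digestion, had a median of -0.17 over 20 genes, with 5 above 0. Jun stood at 626 CPM against 853 CPM (-0.45), Junb at -0.39, Fos at -0.20 and Egr1 at -0.23, and the chaperone Hspa1a at -0.66 was the one past 1.5-fold. Genes of the unfolded protein response, which fold secreted proteins, had a median of 0.14 with 16 of 18 above 0 and none past 1.5-fold, led by Sdf2l1 at 0.27 and Pdia6 at 0.23; the median was 0.01 at weighted depth. All 6 Notch genes measured were below 0 (median -0.18), the lowest being Heyl at -0.55. Factors of the outflow tract had a median of -0.16 over 15 genes, with Prrx2 at least 1.5-fold higher (0.63), Tcf21 lower (-0.83) and Mef2c at -0.28.

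The level of several genes followed the level of Igfbp2 among the Igfbp2-positive cells themselves, read over 4 classes with 2 to 3, 4 to 9, 10 to 49 and 50 or more Igfbp2 UMIs. Of the 12 higher genes, 10 were higher at every step, including Tnc, Ankrd1, Ptprz1, Anxa3, Tgfb2 and Fn1, where 16.0% of 2445 genes at 50 CPM or more were. Of the 12 lower genes, 7 were lower at every step (Apoe, Tcap, Itih4, Tnnt2, Mt1, Gstm1 and Fmo2), where 12.3% of genes were. Since Igfbp2 chose the cells and these genes were picked for a difference between positive and zero cells, the steps are a description. For the levels, cells with 0 and 1 Igfbp2 UMIs are put before the 4 classes. Over all 6 classes, 6 of the 12 higher genes were higher and 5 of the 12 lower genes lower at every step. No share over all genes was counted there. Ankrd1 stood at 42.8, 68.9 and 43.7 CPM with 0, 1 and 2 to 3 Igfbp2 UMIs, and at 27.9 CPM with exactly 2. In the same order of 0, 1 and 2 to 3, Tnc stood at 34.0, 42.8 and 41.7 CPM and Tnnt2 at 811, 495 and 606 CPM. Tgfb2 stood at 124, 136, 143, 176, 199 and 257 CPM over these 6 classes, and Anxa3 at 300.1, 367, 379.6, 433, 497 and 629 CPM. Tcap stood at 218, 122, 104, 91.0, 53.6 and 32.5 CPM, the lowest level being in the cells richest in Igfbp2. Lum behaved otherwise: it stood at 189 CPM in cells without Igfbp2, at 45.8 CPM with 1 UMI and between 32.0 and 39.4 CPM in the Igfbp2-positive classes. The median depth was also higher from class to class, from 10436 to 17357 UMIs.

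**Figure D5:**
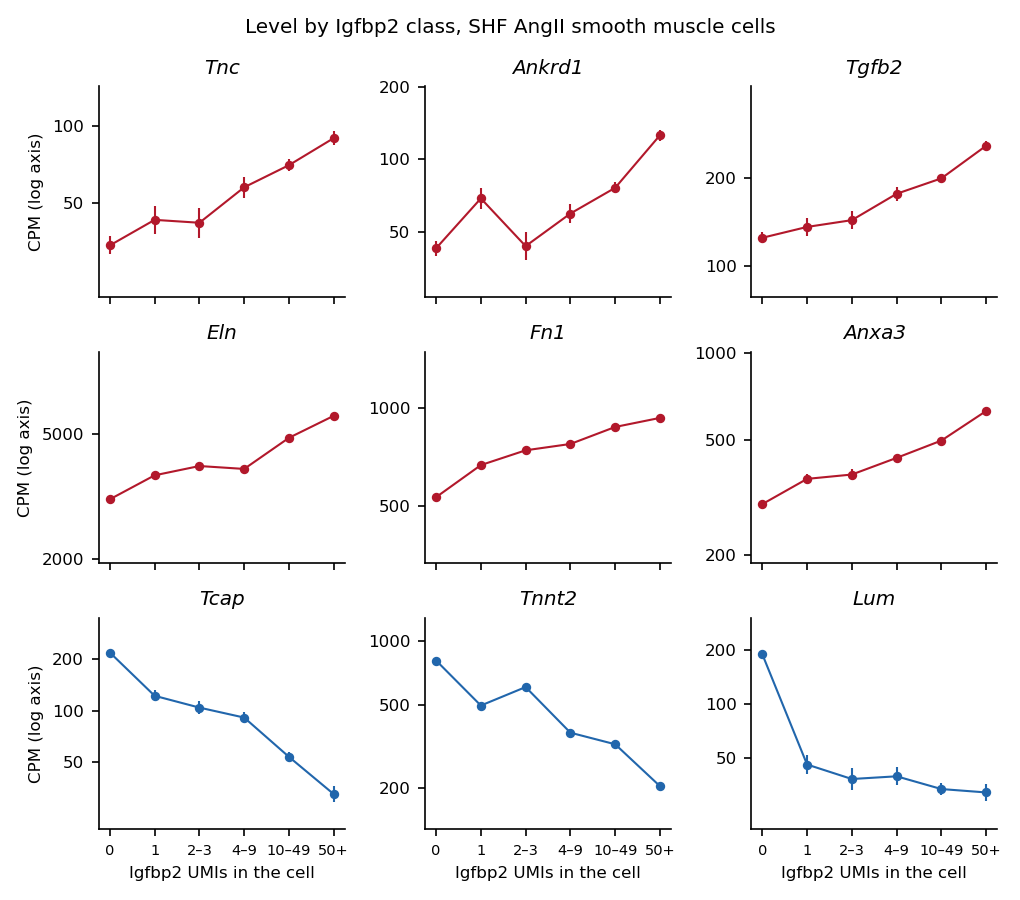
Level (y axis, CPM with Igfbp2 left out of the total, log axis) of 9 genes by the number of Igfbp2 UMIs in the cell (x axis) in SHF AngII smooth muscle cells, with Poisson 95% intervals as bars; red genes were higher and blue genes lower in Igfbp2-positive cells. Tgfb2 climbs from 124 to 257 CPM and Tcap descends from 218 to 32.5 CPM, while Lum drops at the first step.

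Set against each other, 568 Igfbp2-positive cells with 50 or more Igfbp2 UMIs (median depth 17357 UMIs) and 875 with 2 to 9 (12763 UMIs) differed by at least 1.5-fold in 12 of 2346 genes that were higher (0.512%) and 15 that were lower (0.639%). Ankrd1 stood at 126 CPM against 53.1 CPM (log2 ratio 1.23), Ccn5, a matricellular inhibitor of smooth muscle growth, at 128 CPM against 62.3 CPM (1.03) and Cldn3, a tight junction protein, at 69.2 CPM against 37.9 CPM (0.85); Cldn3 had also been higher in positive than zero cells, at 1.11, under the 50 CPM minimum there. Cxcl12, a chemokine, was at 0.85, Tnc at 0.80, Bdnf at 0.75 and Thbs1 (thrombospondin) at 0.69. Lower in the cells rich in Igfbp2 were Tcap (32.5 against 96.3 CPM, -1.54), Tnnt2 (205 against 465 CPM, -1.18), Socs3, a feedback inhibitor of cytokine signalling (-0.90), and Sparcl1 (-0.83). Ccn5, Cxcl12 and Thbs1 had been below 1.5-fold between positive and zero cells, at 0.45, 0.37 and 0.15.

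Variation among Igfbp2-positive cells was also read gene by gene with each cell thinned to 5000 UMIs, as the coefficient of variation beyond counting noise. Its median was 0.275 in 2566 cells over 2334 genes with a mean of at least 0.25 UMIs in a thinned cell. Of these, Dcn had the highest value, 5.59, with a highest count of 85 UMIs in a thinned cell. Timp1 (a metalloproteinase inhibitor, 2.90), Serpinf1 (2.88), Ankrd1 (2.87), Thbs1 (2.65), Rgs5 (2.61), Tcap (2.58) and Tnnt2 (2.49) followed. Lum, under that minimum, was at 3.84. Igfbp2 itself was at 1.16, Eln at 0.81, and the contractile genes Tagln and Acta2 at 0.29 and 0.30. Other genes of contractile cells were uneven: Actg2 had a median of 3 and a highest count of 188 UMIs per positive cell before thinning, and Des (desmin, an intermediate filament) a median of 1 and a highest of 201, with the top 5% of cells holding 29.4% and 35.4% of their UMIs.

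Between conditions, 2576 Igfbp2-positive cells of SHF AngII were set against 333 of SHF baseline, 1 library each. Of 2492 genes, 272 (10.9%) were at least 1.5-fold higher and 304 (12.2%) at least 1.5-fold lower after AngII, and in Igfbp2-zero cells 245 (9.82%) and 264 (10.6%) of 2496 were. Tnc was at 69.2 CPM after AngII and 10.6 CPM at baseline in positive cells, a log2 ratio of 2.60, and at 2.01 in zero cells. Ptprz1 was lower in both, at 153 CPM against 460.4 CPM in positive cells (-1.58) and at -1.28 in zero cells. Eln (0.60 and 0.40) and Ankrd1 (0.45 and 0.95) stood higher after AngII in both groups, Tgfb2 (0.08 and -0.10) near 0 in both, and Apoe lower in both (-2.47 and -1.43).

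Of the 17 lists, the modulated list had the widest gap between the groups: its median for AngII over baseline was 0.17 in positive cells, with 7 of 20 genes at least 1.5-fold higher, and 1.0004 in zero cells, with 16 of 22. At the same minimum of 10 CPM, 8.51% of all genes were higher in the positive and 8.07% in the zero cells. Mgp stood at 0.03 in positive cells against 1.01 in zero cells, Vcam1 at -0.75 against 0.99 and Timp1 at 3.10 against 3.79. The zero group of SHF AngII also held the 40 Spp1-rich cells, without which the list's median between positive and zero cells was -0.07, and the difference between the groups was not tested. Cells rich in Lum or Dcn, 11.9% of zero and 3.96% of positive cells in SHF AngII, were left in as well. Without them, as given above, Vcam1 was below 1.5-fold between positive and zero cells of SHF AngII. Their part in the gap of the list was not tested. The Notch list was lower after AngII in both groups, with medians of -1.05 and -0.92 and 7 and 6 of 7 genes at least 1.5-fold lower, where 16.3% and 13.4% of all genes were. Immediate early genes were likewise lower in both (-0.89 and -0.90). Library and treatment cannot be told apart in these comparisons.

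Igfbp2-positive cells of both lineages after AngII were then compared. Of 2433 genes at 50 CPM or more, 10 (0.411%) were at least 1.5-fold higher in CNC AngII than in SHF AngII and 15 (0.617%) at least 1.5-fold lower, with a median absolute log2 ratio of 0.07. In Igfbp2-zero cells 20 (0.808%) and 36 (1.45%) of 2476 were. Tnnt2 was at 45.9 CPM in CNC AngII and 335 CPM in SHF AngII positive cells (-2.84), and Des also stood at -2.84. Dcn (-2.07), Serpinf1 (-1.94), Lum (-1.93) and Loxl2 (-0.79) were lower in CNC AngII too, and Acan (1.28) and Tnc (0.70) higher. Macrophage markers, which stayed under the 50 CPM minimum, differed far more: 8 of them summed to 171 CPM in positive cells of CNC AngII and 1.45 CPM in those of SHF AngII, and to 229 CPM and 1.72 CPM in zero cells. Lyz2 (lysozyme) stood at 59.2 CPM against 0.190 CPM and C1qa, a complement subunit, at 38.9 CPM against 0.0951 CPM in positive cells. The CNC AngII library also held 1426 cells of the white blood cell gate, against 17 in SHF AngII, and their part in differences between these libraries was not tested. At least 5 Tnnt2 UMIs were found in 4.22% of positive cells in CNC AngII, 24.9% in SHF AngII and 43.2% at SHF baseline. In Igfbp2-zero cells the shares were 4.89%, 37.4% and 40.9% in the same order, so the share was not lower in positive cells at baseline. In SHF AngII, 1179 Igfbp2-positive and 526 Igfbp2-zero cells had no Tnnt2 UMI. Among these cells, 7 genes were at least 1.5-fold higher and 15 lower in Igfbp2-positive than in Igfbp2-zero cells. With all cells the counts were 12 and 28. The part of the smaller number of cells was not tested, and no share over all genes was counted there.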

How the data were processed

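Single-cell RNA of lineage-sorted aortic cells was measured with a droplet 3′ kit, 1 library per group. The deposited tables hold raw UMI counts per gene and barcode, whole numbers as the authors left them; the submitters' processing notes name fastp, STAR 2.5, HTSeq 0.6.1 and build mm10, without roles. In the baseline library, gene names were matched through RefSeq synonyms for 519 genes; 13 repeated names and 647 unmatched names went into no comparison with it. Counts were summed per group of cells and scaled to the group's total (CPM). Ratios are log2((CPM + 1)/(CPM + 1)); intervals are exact binomial, conditional binomial without the added CPM (they can lie off centre) or Poisson. Genes were called at 1.5-fold with a mean of at least 50 CPM, leaving out the 6 rule genes; the text names the 12 highest and 12 lowest among those in at least 10% of cells, and genes of 17 lists. Cells, members and lists were chosen with earlier results of these data known; the Lum and Dcn limits and the combined depth and Spp1 alternative were chosen after seeing the data. Doublets were marked with Scrublet in scanpy 1.11.5 and left in except in an alternative. Scripts were tested on simulated data. Gene positions are from GENCODE on GRCm38 (mm10); promoters are from RefSeq. Some of the named genes are not reported here.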

Additional observations from a re-analysis of the deposited data

Results flagged for a closer look

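Mgp differed between conditions: Igfbp2-positive over Igfbp2-zero cells stood at a log2 ratio of 0.039 in SHF baseline and -0.94 in SHF AngII, on opposite sides of 0. Col14a1 did the same, at 0.34 in SHF baseline and -0.96 in SHF AngII. Neither difference between libraries was tested, since each is 1 library. Without the Igfbp2-zero cells that had at least 5 Spp1 UMIs, Mgp in SHF AngII stood at -0.75, and without cells rich in Lum or Dcn Col14a1 stood at -0.61.

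Cells with at least 2 Igfbp2 and at least 5 Spp1 UMIs, which no comparison used, made up 1.86% of gated smooth muscle cells in SHF AngII and 5.75% in CNC AngII. In SHF baseline there were 0 of 2090, which allows a share of up to 0.176% by the exact interval.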

How the results depend on the processing

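No paired analysis was possible because each group holds 1 library. The share of Igfbp2-positive cells in SHF AngII was 48.6% with cells thinned before the rule, 65.8% with at least 1 Igfbp2 UMI, 46.5% with at least 5, and 65.2% with at least 20 Myh11 UMIs. Against 12 genes higher and 28 lower between Igfbp2-positive and Igfbp2-zero cells, 88 and 429 were counted with no minimum level, 3 and 11 at 200 CPM or more, and 7 and 15 in cells without Tnnt2. With zero cells weighted to the depth of the positive cells, 7 genes were higher, and also 7 when cells with 5 or more Spp1 UMIs were left out as well. The lower genes numbered 50 when 1000 detected genes and a mitochondrial share of 5% or less were required, and 17 without cells rich in Lum or Dcn. With 10 CPM added, 3 genes were higher in CNC AngII in place of 5. The other counts, including those between libraries, stayed within 1.5 times. Of 432 values of the 24 highest and lowest genes over 18 alternatives, none changed sign, but 195 lay outside the counting interval of the main ratio. Lum and Tnnt2 were 0 where the alternative removed them. Dcn and Serpinf1 also moved by more than 1.5-fold in at least 1 alternative. Sorbs2 passed 1.5-fold in 11 of 18, Loxl2 in 12, Eln and Bdnf in 13. Depth limits rare transcripts: a gene at 10 CPM gives under 1 UMI in a typical cell.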

Other observations

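Further lists were read in Igfbp2-positive over Igfbp2-zero cells of SHF AngII. Calcium and potassium channel genes had a median log2 ratio of -0.09 over 14 genes; Pln (phospholamban, which holds back the calcium pump) was at least 1.5-fold lower, at 8.29 CPM against 17.5 CPM (-0.99), while Kcnmb1, a subunit of the large-conductance potassium channel, stood at 0.31. Genes of angiotensin signalling had a median of -0.25 over 6 genes, with Ace, the converting enzyme, at -0.46 and Rgs4, a brake on G protein signalling, at 0.38. Of 21 Hox genes 2 reached 10 CPM, Hoxa3 at -0.11 and Hoxb2 at 0.05.

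Proliferation genes had a median of -0.06 over 7 genes in SHF AngII and -0.63 over 13 genes in CNC AngII. Igfbp2-zero cells with at least 5 Spp1 UMIs held 4.86% of the UMIs of their group in SHF AngII (40 cells) and 12.7% in CNC AngII (86 cells); without them the medians were 0.13 over 6 genes and 0.20 over 9 genes, the latter an alternative chosen after seeing the data. At least 1 Mki67 UMI was found in 26 Igfbp2-positive cells of SHF AngII (1.01%) and in 14 Igfbp2-zero cells (0.976%), and in 2.64% and 3.05% in CNC AngII. In SHF baseline 0 of 333 positive cells had any, which allows a share of cells with a detected UMI of up to 1.10% by the exact interval and sets no limit on cells that express the gene. Ube2c in SHF AngII stood at -0.41, and at 0.32 without the zero cells with at least 5 Spp1 UMIs.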
